A study of Mus musculus with 6 samples.

Results

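The genes described here are 10 members of the fibroblast growth factor (FGF) pathway, namely the receptors Fgfr1, Fgfr2 and Fgfr3, the ligands Fgf1 and Fgf10, the feedback inhibitors Spry1, Spry2 and Spry4, and the target transcription factors Etv4 and Etv5. They were picked by gene symbol, and all 10 were found among the 23366 gene symbols of the table. RNA-seq was run on epithelial cells isolated from the submandibular gland, a major salivary gland, of adult mice aged 12 weeks. The mice under study were labelled p63 knockout (KO, 3 libraries) and were set against mice labelled p63 wild type (WT, 3 libraries). The gene product p63 (gene Trp63) regulates transcription in basal and myoepithelial cells, and the study's title places the question in the growth of gland stem and progenitor cells. The title of WT library 1 names it a control. The labels give neither the allele, the driver of any recombinase nor the sex, and they do not say whether each library came from 1 mouse or from pooled mice.

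FGF ligands bind receptor tyrosine kinases on neighbouring cells together with heparan sulfate, and the bound receptors signal through docking proteins, Ras and the ERK MAP kinases. The pathway then switches on its own brakes, the Sprouty proteins and dual-specificity phosphatases, and the transcription factors Etv4 and Etv5, so these genes are commonly read as markers of pathway output. In the developing salivary gland, mesenchymal FGF10 acts on an epithelial splice form of FGFR2 and is needed for the gland to form and branch.

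Values are TPM, a transcript abundance corrected for gene length and scaled to a total of 1000000 in each library, so levels can be compared between genes but sequencing depth is unknown. Trp63 itself measured 1.59, 0.816 and 1.76 TPM in KO libraries 1, 2 and 3, against 3.48, 1.85 and 3.68 TPM in WT libraries 1, 2 and 3. The groups did not overlap, and in limma Trp63 missed the threshold (log2 fold change -0.74, SE 0.27, adjusted p = 0.27; -0.85 without KO library 3, adjusted p = 0.040). The prepared cells held abundant acinar transcripts, with a summed level of 8 acinar markers of 187264 to 239859 TPM in the KO and 134200 to 156666 TPM in WT. Prol1 and Pip made up nearly all of that sum. They were the 2 of 7 tested acinar markers with all KO values above all WT values (5.42% of all genes tested). For Prol1 the margin was slight, with 85790 TPM in KO library 3 and 85772 TPM in WT library 2. Of the 7, 0 passed (0.390% of all genes tested), and Aqp5 and Bhlha15 had log2 fold changes of -0.08 and -0.11. KO library 3 stood apart from the rest. Its median gene lay 0.29 below the WT mean on the log2(TPM + 1) scale, while the median gene lay 0.27 and 0.24 above it in KO libraries 1 and 2. In KO library 3 the 50 most abundant genes took 80.3% of all TPM, against 69.2% to 75.9% in the other libraries. It also had the highest Trp63 level of the KO libraries, by a small margin (1.76 TPM, against 1.59 TPM in KO library 1). The summed level of 7 basal and myoepithelial markers, Trp63 among them, was instead highest in KO library 1, at 233.8, 126.7 and 142.2 TPM in KO libraries 1, 2 and 3. The labels give no reason to set KO library 3 aside, and whether library quality or the extent of the deletion differed in it was not tested. Fold changes are therefore given with all libraries and also without it. In bulk RNA, fewer cells of a type and less RNA per cell cannot be told apart.

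In the knockout the order of levels was led by Fgfr2 at 26.9 ± 18.4 TPM (SD, n = 3), then Fgf1 at 14.5 ± 4.45 TPM, Spry2 at 10.4 ± 5.60 TPM, Spry1 at 6.87 ± 4.73 TPM and Fgfr1 at 5.91 ± 0.281 TPM, and each of these overlapped the next. Fgf10 at 1.91 ± 0.392 TPM lay wholly below Fgfr1 and overlapped Etv5 at 1.85 ± 0.672 TPM. The lowest genes in the knockout were Fgfr3 at 0.872 ± 0.373 TPM, Spry4 at 0.868 ± 0.988 TPM and Etv4, which was listed at 0 in 1 library. In wild-type glands the ligand Fgf1 was the most abundant of the 10, at 30.9 ± 4.88 TPM (SD, n = 3). Below it stood Spry2 at 6.57 ± 1.23 TPM and Fgfr2 at 6.17 ± 0.394 TPM, whose ranges overlapped, then Fgfr1 at 4.42 ± 0.628 TPM and Spry1 at 3.39 ± 0.979 TPM, which overlapped too. Fgf10 at 2.19 ± 0.176 TPM and Etv5 at 2.11 ± 0.387 TPM could not be separated. Fgfr3 (1.07 ± 0.101 TPM), Spry4 (0.640 ± 0.0156 TPM) and Etv4 (0.263 to 0.595 TPM) closed the order, each with a range below that of the gene before it.

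**Figure D1:**
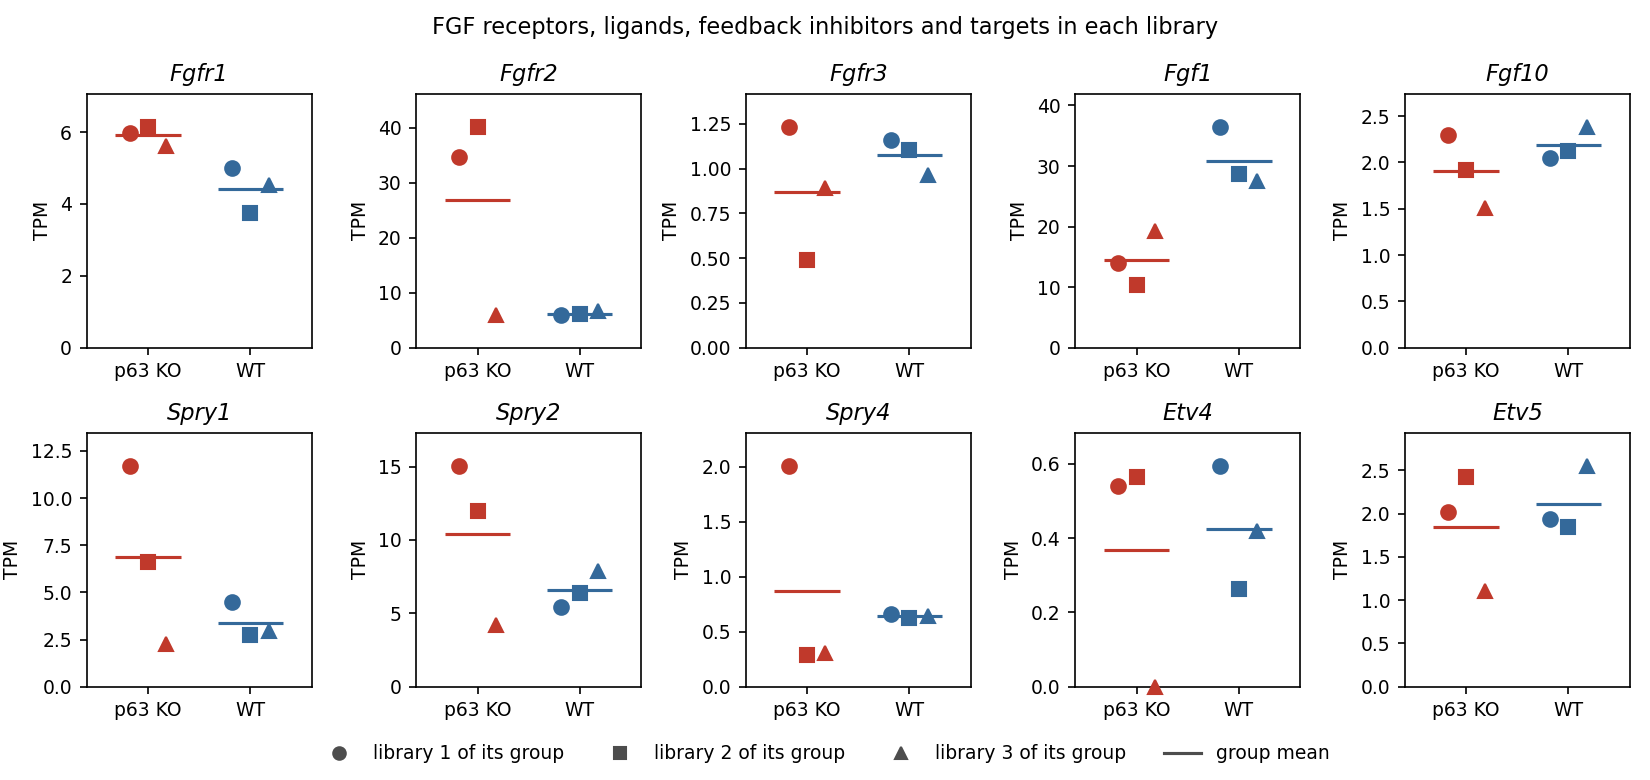
TPM of each of the 10 genes (vertical axes from 0, a separate scale for each gene) in 3 KO and 3 WT libraries, with a line at each group mean. Fgfr2 stood at 34.7 and 40.2 TPM in KO libraries 1 and 2 but at 5.89 TPM in KO library 3, within the WT range of 5.85 to 6.61 TPM, while all KO values of Fgf1 lay below all WT values.

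Of the 10 genes, 8 passed the filter of at least 1 TPM in at least 3 libraries and were tested with limma together with 11268 genes in all. With all 6 libraries, 0 of the 8 passed at an adjusted p of 0.05, where 0.390% of all genes tested passed, 0.0710% as higher and 0.319% as lower. Fgfr2 and Fgf1 were the 2 with an unadjusted p under 0.05, where 15.4% of all genes had one. Fgfr1 was the 1 gene of the 8 whose KO libraries all lay above the WT libraries (5.42% of all genes tested), and Fgf1 the 1 whose KO libraries all lay below (15.6% of all genes tested, and 21.1% for either direction). The median log2 fold change of the 8 was 0.11, beside 0.09 over all genes tested.

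Among the receptors, Fgfr2 differed most between libraries. Fgfr2, whose epithelial form is the receptor for FGF10 and FGF7, measured 34.7, 40.2 and 5.89 TPM in KO libraries 1, 2 and 3, against 5.85, 6.04 and 6.61 TPM in WT libraries 1, 2 and 3. KO libraries 1 and 2 thus stood at 5.63 and 6.52 times the WT mean, while KO library 3 stood at 0.956 times and lay within the WT range. Within the knockout the highest library was 6.82 times the lowest, against 1.13 times within wild type. Over all 6 libraries the log2 fold change was 1.6 (SE 0.63, 95% interval 0.13 to 3.06, adjusted p = 0.29), and permuting the library labels on TPM, an exact two-sided test, gave p = 0.3. By log2 fold change Fgfr2 ranked 85 from the top of 11268 genes. It passed as higher without KO library 3, at 2.42 (SE 0.14, adjusted p = 0.00023). A table of genes cannot tell the epithelial and mesenchymal splice forms of Fgfr2 apart.

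Fgfr1, a receptor found mainly in mesenchymal cells, stood slightly higher in every KO library. It measured 5.98, 6.15 and 5.60 TPM in the KO libraries, against 4.996, 3.75 and 4.52 TPM in the WT libraries. All KO values lay above all WT values, KO library 3 included. The log2 fold change was small, at 0.36 (SE 0.21, 95% interval -0.13 to 0.84, adjusted p = 0.42), and the exact permutation p (two-sided) was 0.1, the smallest value that 3 libraries against 3 allow. With that library left out it was 0.39 (SE 0.16, adjusted p = 0.084). Fgfr3, the remaining tested receptor, stayed near the detection filter at 1.23, 0.490 and 0.891 TPM in the KO libraries, against 1.16, 1.10 and 0.962 TPM in the WT libraries. Its groups overlapped, with a log2 fold change of -0.17 (SE 0.19, 95% interval -0.62 to 0.29, adjusted p = 0.65), and of -0.18 without KO library 3 (SE 0.22, adjusted p = 0.51).

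The balance of receptor transcripts differed in the same 2 KO libraries. The summed level of Fgfr1, Fgfr2, Fgfr3 and the nearly undetected Fgfr4 was 41.9, 46.9 and 12.4 TPM in KO libraries 1, 2 and 3, against 12.0, 10.9 and 12.1 TPM in the WT libraries. Fgfr2 made up 82.8%, 85.7% and 47.6% of that sum in the KO libraries, against 48.7%, 55.5% and 54.4% in the WT libraries. KO library 3 thus had a total just above that of the WT libraries and a share of Fgfr2 just below theirs.

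The ligand Fgf1 was lower in every KO library. FGF1, a ligand that can bind all FGF receptor forms and that lacks a classical secretion signal, had 13.96, 10.4 and 19.2 TPM of transcript in the KO libraries, against 36.5, 28.7 and 27.5 TPM in the WT libraries. The KO libraries stood at 0.452, 0.335 and 0.621 times the WT mean, and no KO value reached the lowest WT value. The log2 fold change was -1.07 (SE 0.27, 95% interval -1.69 to -0.45), with an unadjusted p of 0.0043 in limma, but after adjustment over all genes it did not pass (adjusted p = 0.12). The exact permutation p (two-sided) was 0.1, the smallest this design allows. Fgf1 passed as lower without KO library 3, at -1.28 (SE 0.19, adjusted p = 0.0023).

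Fgf10, the mesenchymal ligand of the epithelial receptor, was measured at low and similar levels in both groups. It had 2.29, 1.92 and 1.51 TPM in the KO libraries, against 2.05, 2.12 and 2.39 TPM in the WT libraries. The groups overlapped and the log2 fold change was -0.14 (SE 0.19, adjusted p = 0.71), with a 95% interval of -0.59 to 0.31. With KO library 3 left out it was -0.04 (SE 0.16, adjusted p = 0.86). Fibroblasts are a known source of this ligand. The summed level of 10 fibroblast markers was 150.1 to 317.9 TPM in the KO and 312.0 to 408.6 TPM in WT, most of it Dcn. Of the 10, 1 passed as lower and 0 as higher, beside 0.319% and 0.0710% of all genes tested. The 10 log2 fold changes were all negative but uneven, from -3.05 for Col3a1 to -0.16 for Dpt, -0.15 for Pdgfrb and -0.03 for Pdgfra. The part of fibroblasts in the Fgf10 values was not tested.

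The Sprouty genes Spry1 and Spry2 followed the libraries in the way of Fgfr2. Spry1, an inhibitor of signalling from receptor tyrosine kinases to ERK, measured 11.7, 6.62 and 2.27 TPM in the KO libraries, against 4.51, 2.72 and 2.94 TPM in the WT libraries. KO libraries 1 and 2 lay above all WT libraries and KO library 3 below them. The log2 fold change was 0.66 (SE 0.48, 95% interval -0.45 to 1.76, adjusted p = 0.48), and without KO library 3 the gene passed as higher at 1.19 (SE 0.27, adjusted p = 0.011). Spry2, a related inhibitor, measured 15.1, 12.0 and 4.21 TPM in the KO libraries, against 5.44, 6.38 and 7.88 TPM in the WT libraries. Again KO libraries 1 and 2 lay above and KO library 3 below the WT range. The log2 difference for Spry2 was 0.46 (SE 0.42, 95% interval -0.53 to 1.44, adjusted p = 0.57), and 0.95 without KO library 3, where it passed as higher (SE 0.19, adjusted p = 0.0069). Without KO library 1 the log2 fold changes were 0.21 for Spry1 and 0.13 for Spry2, and without KO library 2 that of Spry2 was 0.29, none of which passed. Exact two-sided permutation tests on all 6 libraries gave p = 0.4 for each of the 2 genes.

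Spry4, also a Sprouty inhibitor, did not pass the filter. It measured 2.01, 0.288 and 0.307 TPM in the KO libraries, against 0.656, 0.625 and 0.638 TPM in the WT libraries. KO library 1 alone stood above the WT range and the other 2 KO libraries below it. KO library 1 was also the KO library with the highest summed markers of several other tissues. Parotid gland markers summed to 5466, 71.5 and 352 TPM in KO libraries 1, 2 and 3, against 917, 6022 and 479 TPM in the WT libraries. Sublingual gland markers summed to 1398, 15.1 and 4.90 TPM in the KO libraries, against 8405, 145 and 15.2 TPM in the WT libraries. Adipocyte markers summed to 235, 40.7 and 69.9 TPM in the KO libraries, against 278, 276 and 82.4 TPM in the WT libraries, and fibroblast markers were also highest there among KO libraries. Their part in the Spry4 value was not tested. With no filter applied, Spry4 had a log2 fold change of 0.07 (SE 0.33, adjusted p = 0.93).

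The Ets factors Etv4 and Etv5 did not share the pattern of Spry1 and Spry2. Etv5 measured 2.02, 2.42 and 1.11 TPM in the KO libraries, against 1.94, 1.84 and 2.56 TPM in the WT libraries. The groups overlapped and the log2 fold change was -0.15 (SE 0.24, 95% interval -0.71 to 0.41, adjusted p = 0.75). The value was 0.05 without KO library 3 (SE 0.18, adjusted p = 0.82), so its sign turned while its value stayed near 0. Etv4, below the filter, measured 0.541 and 0.566 TPM in KO libraries 1 and 2 and was listed at 0 in KO library 3, against 0.595, 0.263 and 0.418 TPM in the WT libraries. With no filter applied, Etv4 had a log2 fold change of -0.08 (SE 0.19, adjusted p = 0.85).

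**Figure D2:**
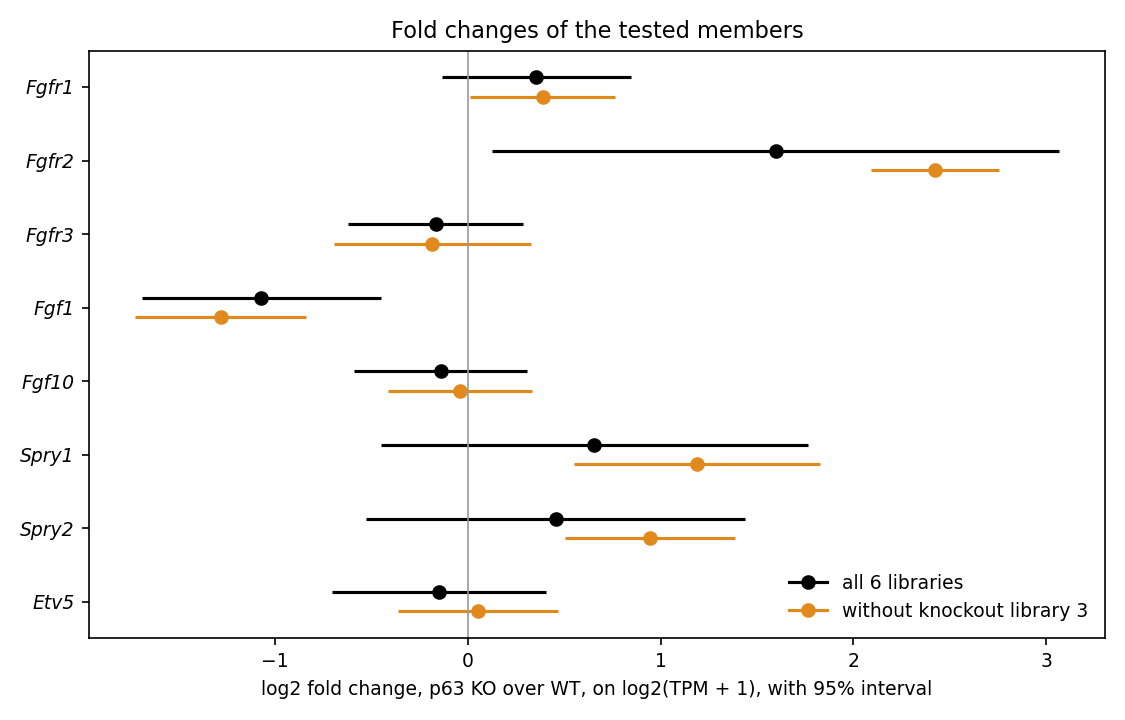
log2 fold change of p63 KO over WT on the log2(TPM + 1) scale for the 8 tested members, with 95% intervals from limma, for all 6 libraries (black) and without KO library 3 (orange). Fgfr2 moved to 2.42 from 1.6 and Spry1 to 1.19 from 0.66 when that library was left out, while Fgfr1 (0.39 and 0.36) and Fgf1 (-1.28 and -1.07) changed less.

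The departure of KO library 3 was shared by a large part of the transcriptome. Without it, 4 of the 8 tested members passed, Fgfr2, Spry1 and Spry2 as higher and Fgf1 as lower, but so did 45.5% of all genes tested. The share passing as higher was 33.8% and the share passing as lower 11.7%. Fgfr2, Spry1 and Spry2 were the 3 members with KO libraries 1 and 2 above every WT library and KO library 3 not above them, an arrangement that 41.9% of all genes tested had. The opposite arrangement, with KO libraries 1 and 2 below and KO library 3 not, was found in 0 members and in 4.17% of all genes tested. A count of 3 or 4 of 8 lies near these backgrounds. The size of the difference set Fgfr2 further out than the counts do. By the mean of KO libraries 1 and 2 less the WT mean, Fgfr2 ranked 86 of 11268 from the top, Spry1 ranked 1036 and Spry2 ranked 1715, while Fgf1 ranked 11021.

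Set against the median gene of its own library, the position of KO library 3 and of Fgfr1 changed. On this reading, a difference from the WT mean on the log2(TPM + 1) scale less the library's median difference, Fgfr2 lay at 2.05, 2.28 and 0.23 in KO libraries 1, 2 and 3, against -0.09, 0.0098 and 0.07 in WT libraries 1, 2 and 3. All 3 KO libraries then lay above all WT libraries, whereas by TPM KO library 3 lay within the WT range. Subtracting a median of -0.29 raised every gene of KO library 3 alike, so this separation is not particular to Fgfr2. The share of all genes tested whose groups were apart on this reading was not counted, for either direction. Fgfr1 lay at 0.10, 0.16 and 0.58 in the KO libraries, against 0.13, -0.15 and 0.02 in the WT libraries, so the groups, apart by TPM, overlapped. Spry1 lay at 1.29, 0.57 and -0.11 in the KO libraries, against 0.33, -0.18 and -0.15 in the WT libraries. Spry2 lay at 0.83, 0.55 and -0.24 in the KO libraries, against -0.24, 0.01 and 0.23 in the WT libraries. For both Sprouty genes KO library 3 then lay within the WT range, whereas by TPM it lay below that range. Fgf1 lay at -1.35, -1.72 and -0.36 in the KO libraries, against 0.22, -0.06 and -0.17 in the WT libraries, and was below all WT libraries by either reading.

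**Figure D3:**
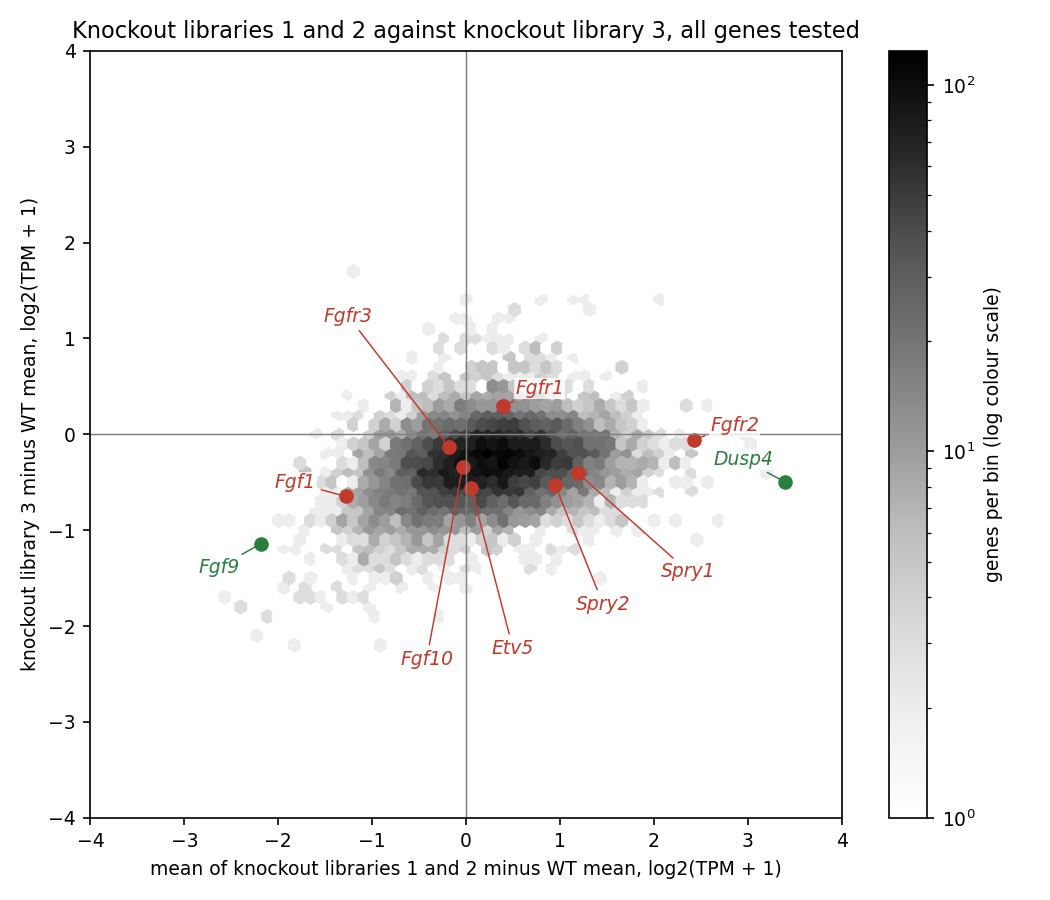
For each of 11268 genes, the mean of KO libraries 1 and 2 (horizontal axis) and KO library 3 (vertical axis), each less the WT mean on the log2(TPM + 1) scale, as bins shaded by the number of genes; 10 genes lie outside the axes at ±4. The 8 tested members are in red and Fgf9 and Dusp4 in green, with Fgfr2 and Dusp4 far to the right near or below 0 on the vertical axis and Fgf1 and Fgf9 low on both axes.

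The stretches just upstream of Fgfr2, Spry1 and Spry2 are shown because these 3 genes had KO libraries 1 and 2, but not KO library 3, above all WT libraries, as 41.9% of all genes tested did. Windows of 250 bases before an annotated start were read from RefSeq (GRCm38.p6, a later build than the mm9 used for the TPM) for 6 of the 10 members, namely Fgfr2, Fgfr3, Fgf10, Spry1, Spry2 and Etv5. No window was read for Fgfr1, Fgf1, Spry4 and Etv4. A single chromosome was skipped when member windows were read, so a gene without a window here may still have an annotated start. The windows below are at chr7:130266809-130267058 (minus strand, Fgfr2), chr3:37639697-37639946 (plus strand, Spry1) and chr14:105896820-105897069 (minus strand, Spry2), and each ends at the base before the start. Capitals mark CCCGCCC on either strand, the GC box bound by Sp1 family factors.
Fgfr2: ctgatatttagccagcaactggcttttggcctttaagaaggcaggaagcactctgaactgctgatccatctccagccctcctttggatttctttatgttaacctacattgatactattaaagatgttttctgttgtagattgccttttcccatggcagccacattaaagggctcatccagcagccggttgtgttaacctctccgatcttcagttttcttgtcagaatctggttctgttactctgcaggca
Spry1: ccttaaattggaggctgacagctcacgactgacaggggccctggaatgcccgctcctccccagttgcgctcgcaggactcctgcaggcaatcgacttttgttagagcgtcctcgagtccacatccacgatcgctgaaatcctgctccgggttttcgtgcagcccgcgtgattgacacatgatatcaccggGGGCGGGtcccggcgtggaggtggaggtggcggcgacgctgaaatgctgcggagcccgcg
Spry2: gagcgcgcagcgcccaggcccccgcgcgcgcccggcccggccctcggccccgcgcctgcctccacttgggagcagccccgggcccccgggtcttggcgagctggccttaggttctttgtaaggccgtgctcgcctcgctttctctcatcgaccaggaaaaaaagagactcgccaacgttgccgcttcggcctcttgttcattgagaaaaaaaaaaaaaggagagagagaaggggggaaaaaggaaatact
The Spry1 and Spry2 windows were GC-rich, at 62.4% each, and the Fgfr2 window was not, at 44.0%, beside a median of 52.4% over 32851 such windows. The GC box was found in the Spry1 window, at position -60 from the start, and not in the Fgfr2, Spry2 and Etv5 windows. It was also in the Fgf10 window and in both Fgfr3 windows, genes without that arrangement of libraries, and 23.4% of all windows held it. The Ets core CCGGAA, the kind of letters that ETV4 and ETV5 bind, was in none of the windows read for the 6 members, and 12.0% of all windows held it. The AP-1 letters TGANTCA (6.75% of all windows) and the p53 family half-site, the kind of element p63 binds (7.13% of all windows), were in none of them either. All motifs were searched on both strands, and a window without a match says only that these letters are not in it.

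Other genes of the pathway were read from 5 lists that together held 78 genes, of which 76 were in the table and 48 passed the filter. With all 6 libraries 0 of the 48 passed limma's test, 5 had an unadjusted p under 0.05, and 30 had positive and 18 negative log2 fold changes. Their median was 0.21, beside 0.09 over all genes tested. All KO values lay above all WT values in 1 of the 48 (5.42% of all genes tested) and below them in 6 (15.6% of all genes tested). Without KO library 3, 24 of the 48 passed, 20 as higher and 4 as lower, near the background of 45.5%.

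Among the other ligands Fgf9 stood lower in every KO library. Fgf9, a ligand known mainly for signalling from epithelium to mesenchyme in other developing organs, measured 0.671, 1.16 and 2.92 TPM in the KO libraries, against 7.02, 8.32 and 7.59 TPM in the WT libraries. The highest KO value was thus below the lowest WT value, and KO library 3 was the nearest to wild type. In limma the log2 fold change was -1.84 (SE 0.33, 95% interval -2.60 to -1.07), with an unadjusted p of 0.00061 in limma and an adjusted p of 0.065, so it did not pass. Fgf9 passed as lower without KO library 3, at -2.18 (SE 0.17, adjusted p = 0.00043). Both Fgf1 and Fgf9 thus stood lower in all 3 KO libraries, and in both genes KO library 3 was the highest of the KO libraries.

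Markers of the granular convoluted tubule, the duct segment that stores growth factors in this gland, and of basal and myoepithelial cells also stood lower in every KO library. The summed level of 7 tubule markers, Egf and kallikrein genes among them, was 7589 to 25666 TPM in the KO and 77418 to 93144 TPM in WT, with Ren1 at 0 throughout. The summed level of 7 basal and myoepithelial markers, Krt14, Acta2 and Trp63 itself among them, was 126.7 to 233.8 TPM in the KO and 359.5 to 458.9 TPM in WT. For 6 leukocyte markers it was 100.5 to 199.8 TPM in the KO and 374.5 to 437.1 TPM in WT. Of these genes 1 of 6 tested tubule markers and 2 of 7 basal and myoepithelial markers passed as lower, beside 0.319% of all genes tested. Of 6 leukocyte markers 0 passed, and 5 had an unadjusted p under 0.05 in limma, beside 15.4% of all genes tested. Their part in the values of Fgf1 and Fgf9 was not tested.

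Fgfbp1, a secreted protein that frees FGFs from the matrix, had the largest positive log2 fold change and the highest mean level within the list of other ligands and carriers. It measured 6.48, 15.7 and 3.14 TPM in the KO libraries, against 1.58, 4.43 and 1.96 TPM in the WT libraries, with overlapping groups (log2 fold change 1.21, SE 0.52, adjusted p = 0.32). Without KO library 3 it passed as higher, at 1.69 (SE 0.42, adjusted p = 0.016), and without KO library 2 the value was 0.69 (adjusted p = 0.63). The mesenchymal ligand Fgf7, which shares its receptor with FGF10, stood at 1.04 to 1.64 TPM in the KO and 1.04 to 2.56 TPM in WT. Of the 18 listed ligands and carriers, 13 stayed under 1 TPM in every library, and 7 of these were listed at 0 in all 6.

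Among the other feedback inhibitors and targets all 7 tested genes had positive log2 fold changes, as did 6464 of all 11268 genes tested. Of the 7, 0 passed in limma with all 6 libraries (1 with an unadjusted p under 0.05). KO libraries 1 and 2 lay above all WT libraries, and KO library 3 not above them, in 4 of the 7 (41.9% of all genes tested). Dusp4, a nuclear phosphatase that switches MAP kinases off, had the largest value and the highest mean level of the list. It measured 76.4, 106.3 and 5.17 TPM in the KO libraries, against 2.82, 9.79 and 14.96 TPM in the WT libraries. KO libraries 1 and 2 stood at 8.31 and 11.6 times the WT mean and KO library 3 at 0.562 times, within the WT range, which was itself wide. limma gave Dusp4 a log2 fold change of 2.09 (SE 1.06, adjusted p = 0.37), and of 3.39 without KO library 3, where it passed as higher (SE 0.55, adjusted p = 0.0033). Without KO library 2 the value was 1.33, and it did not pass. Dusp4 thus had the same order of KO libraries against wild type as Fgfr2, with a larger spread. Dusp6, of the same list, measured 47.7, 27.1 and 22.2 TPM in the KO libraries, against 16.4, 22.7 and 41.3 TPM in the WT libraries. Its groups overlapped, with a log2 fold change of 0.29 (SE 0.40, adjusted p = 0.71). Without KO library 3 Dusp6 stood at 0.52 (SE 0.39, adjusted p = 0.31) and did not pass.

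Dusp5, an ERK phosphatase of the nucleus, was the 1 gene of that list whose groups did not overlap, and it is named for this reason after its values were seen. Of all genes tested, 5.42% had all KO values above all WT values, and 21.1% had groups apart in either direction. It measured 5.58, 7.35 and 5.83 TPM in the KO libraries, against 2.61, 2.48 and 3.81 TPM in the WT libraries. KO library 3 thus lay with the other KO libraries. The log2 fold change was 0.88 (SE 0.23, 95% interval 0.33 to 1.42, adjusted p = 0.14), and 0.92 without KO library 3 (SE 0.20, adjusted p = 0.010), where it passed.

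Of the 4 other receptors and co-receptors, 2 passed the filter. Kl, the co-receptor Klotho for the hormone FGF23, measured 2.17, 1.73 and 0.184 TPM in the KO libraries, against 1.04, 0.841 and 0.286 TPM in the WT libraries (log2 fold change 0.36, SE 0.38, adjusted p = 0.62), and passed as higher at 0.80 without KO library 3 (SE 0.24, adjusted p = 0.031). Its value was 0.087 without KO library 1, 0.20 without KO library 2 and 0.16 without WT library 3, and did not pass in these. Fgfrl1, a receptor-like protein without a kinase domain, stood at 4.31 to 5.81 TPM in the KO and 5.09 to 6.45 TPM in WT, with a log2 fold change of -0.09 (SE 0.22, adjusted p = 0.84), and of 0.024 without KO library 3 (SE 0.15, adjusted p = 0.91).

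In the adaptors and the MAP kinase cascade, 13 of 18 tested genes had KO libraries 1 and 2 above all WT libraries and KO library 3 not above them (41.9% of all genes tested), the arrangement of Fgfr2. The list had 0 genes that passed in limma with all 6 libraries and 0 with an unadjusted p under 0.05. Plcg1, a phospholipase that binds activated FGF receptors directly, had the largest positive value, at 11.8, 14.04 and 3.71 TPM in the KO libraries, against 3.66, 4.53 and 4.62 TPM in the WT libraries (log2 fold change 0.88, SE 0.43, adjusted p = 0.36). The ERK kinase gene Mapk3, the most abundant of the list, measured 46.7, 56.7 and 19.99 TPM in the KO libraries, against 43.1, 33.2 and 33.4 TPM in the WT libraries, with a log2 fold change of 0.05 (SE 0.38, adjusted p = 0.95) whose sign turned under other scalings. Map2k1 and Map2k2, the kinases just above ERK, were the 2 genes of the list with all KO values below all WT values (15.6% of all genes tested). Map2k2 measured 24.7, 19.9 and 20.5 TPM in the KO libraries, against 32.7, 28.3 and 26.3 TPM in the WT libraries (log2 fold change -0.41, SE 0.20, adjusted p = 0.37). Map2k1 had a log2 fold change of -0.40 (SE 0.20, adjusted p = 0.37). Without KO library 3, Plcg1 passed as higher at 1.40 (SE 0.16, adjusted p = 0.0010), and stood at 0.57 without KO library 2, where it did not pass. Mapk3 at 0.49 (adjusted p = 0.052), Map2k1 at -0.29 (adjusted p = 0.11) and Map2k2 at -0.37 (adjusted p = 0.098) did not pass.

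Heparan sulfate genes, whose products carry FGFs to their receptors, were mixed, with 8 positive and 9 negative log2 fold changes among 17 tested and a median of -0.02. In limma 0 passed with all 6 libraries and 3 had an unadjusted p under 0.05. Ndst1, which adds the first sulfates to the chain, measured 57.8, 57.1 and 21.9 TPM in the KO libraries, against 18.2, 24.4 and 21.3 TPM in the WT libraries (log2 fold change 0.95, SE 0.38, adjusted p = 0.30). It thus had the arrangement of Fgfr2. The syndecan gene Sdc3, a membrane proteoglycan, measured 1.40, 1.37 and 1.32 TPM in the KO libraries, against 2.75, 2.68 and 2.65 TPM in the WT libraries (log2 fold change -0.64, SE 0.17, adjusted p = 0.14), and all 3 KO libraries were alike. Gpc1, a glypican, and Ext1, a chain-building enzyme, were the other 2 with all KO values below all WT values (15.6% of all genes tested). The log2 fold change was -0.38 for Gpc1 (SE 0.18, adjusted p = 0.35) and -0.64 for Ext1 (SE 0.23, adjusted p = 0.25). All KO values of Gpc1 were under 1 TPM and it passed the filter through its WT libraries alone, so its separation was fixed by the filter. Sdc4, the most abundant of the list, measured 99.4, 69.6 and 31.6 TPM in the KO libraries, against 43.6, 47.2 and 34.7 TPM in the WT libraries (log2 fold change 0.53, SE 0.40, adjusted p = 0.50). Without KO library 3, Ndst1 at 1.40 (adjusted p = 0.00097) and Sdc4 at 0.99 (adjusted p = 0.0081) passed as higher, but Sdc4 stood at 0.18 without KO library 1 (adjusted p = 0.90). Sdc3 at -0.63 (adjusted p = 0.013) and Ext1 at -0.60 (adjusted p = 0.037) passed as lower, and Gpc1 at -0.28 (adjusted p = 0.22) did not pass.

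**Figure D4:**
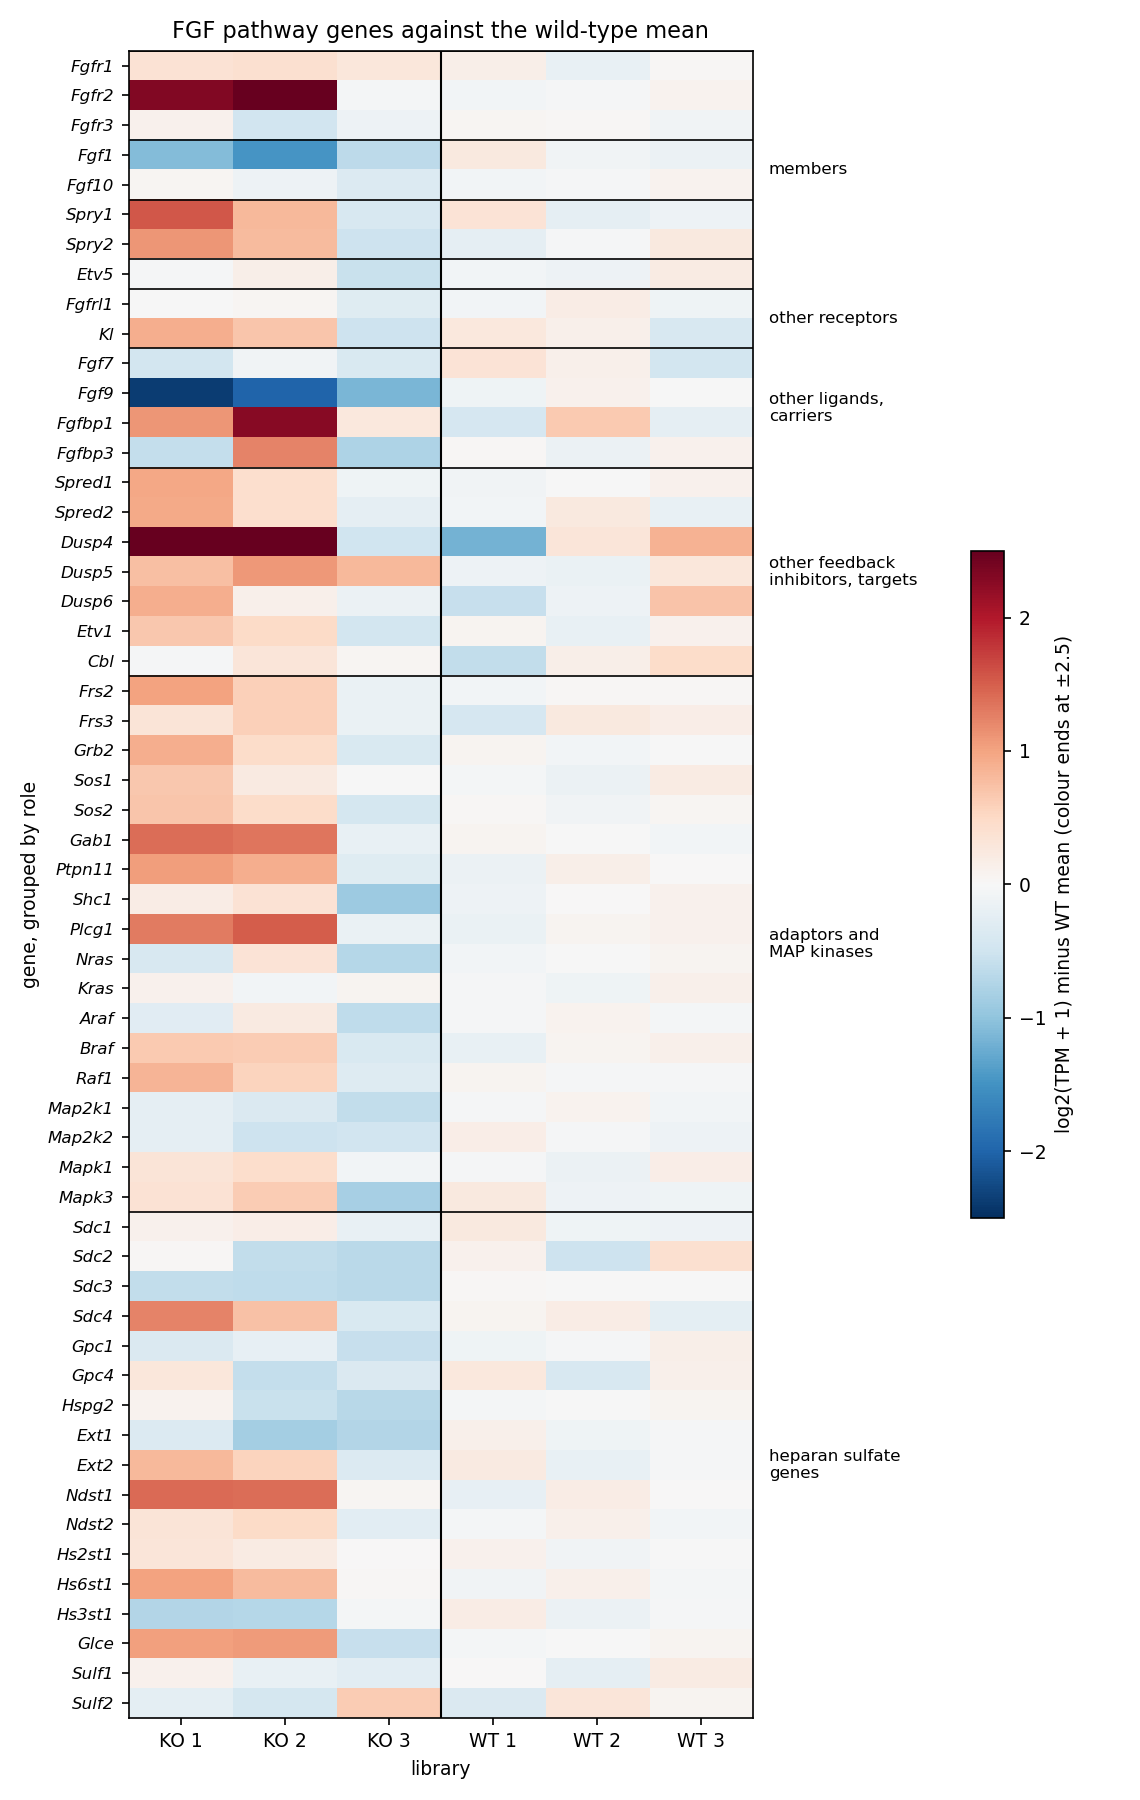
Colour shows log2(TPM + 1) less the WT mean for 8 members and 48 other pathway genes that passed the filter (rows, by role) in 3 KO and 3 WT libraries (columns), with colours ending at ±2.5. Fgfr2, Spry1, Spry2, Dusp4 and most adaptor genes are red in KO libraries 1 and 2 and pale or blue in KO library 3, while Fgf1, Fgf9 and Sdc3 are blue in all 3 KO libraries.

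Genes with the pattern most like that of a member were sought among 7496 tested genes whose SD over the 6 libraries was at least 0.3 on the log2(TPM + 1) scale. Likeness was the root-mean-square difference between the 2 genes, each centred on its own mean over the 6 libraries. Nearest to Fgfr2 were Map3k6 (0.07) and 2410004N09Rik (0.08), with Map3k6 at 9.76, 13.3 and 1.41 TPM in the KO libraries, against 1.26, 1.39 and 1.62 TPM in the WT libraries. Nearest to Fgf1 were Comtd1 (0.06) and Cnpy4 (0.08), to Spry1 Poldip3 (0.08) and Ccrl2 (0.09), and to Spry2 Sp1 (0.08) and Cog3 (0.08). With 6 libraries and 7496 genes, close matches of this kind are a description only. Fgfr1, Fgfr3, Fgf10 and Etv5 varied by less than that SD and were not matched.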

How the data were processed

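RNA was measured in 3 p63 KO and 3 WT libraries, grouped by the genotype label. Total RNA went into Illumina TruSeq RNA libraries, per the labels' protocols. The authors deposited TPM, obtained per the labels by scaling counts for gene length and for library size. The submitters' processing notes name mm9 and the tools featureCounts 1.5.1, DESeq2 1.20.0, TopHat2 2.1.1 and Bowtie2 2.2.6. The annotation and strand setting are not given in the sources used here. TPM keeps no depth, so no counting interval or detection limit was given, and its fixed total lets a few abundant genes move all others.

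Values were tested as log2(TPM + 1) with limma 3.58.1 (mean-variance trend, two-sided, Benjamini-Hochberg adjustment over the 11268 genes reaching 1 TPM in 3 or more libraries, threshold 0.05) in R 4.3.3. On the log2(TPM + 1) scale the change of a low gene is understated. SD refers to TPM, SE to the log2 fold change. Every adjusted p is from limma. The fit was tested on simulated data. Members and lists were chosen with earlier results of these data known. Named genes were all members, Trp63, and in each other list those that passed, the largest positive and negative log2 fold change and the highest mean TPM. Fgf7, Dusp5, Dusp6, Etv1, Map2k1, Gpc1 and Ext1 were named after their values were seen. Replicate numbers follow the order of the sample records, and the labels state no pairing, batch or date. P-values measure the spread between these libraries, which the labels do not tie to separate mice. The alternatives were other pseudocounts, filters, scalings, limma options, a block by library index number, and leaving out each library in turn. Figures were drawn with matplotlib 3.10.9.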

Additional observations from a re-analysis of the deposited data

How the results depend on the processing

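With all 6 libraries 0 of 8 members passed, and 44 of 11268 genes did. The number of members passing stayed 0 under 15 of 17 alternatives and was 4 with array weights. Leaving out each library in turn gave 0 to 4 members, the 4 without KO library 3 (Fgfr2, Spry1, Spry2 and Fgf1). For the other pathway genes, whose alternatives were chosen after seeing the data, the number was 0 with all libraries, 23 with array weights (19 higher, 4 lower) and 0 to 24 without 1 library, the 24 without KO library 3. Over all genes it was 25 with a pseudocount of 0.1 TPM, 11 with no filter, 29 with a filter of 5 TPM, 4822 with array weights and 0 to 5127 without 1 library. It was 11, 16 and 5127 without KO libraries 1, 2 and 3 in turn, and 1, 0 and 0 without WT libraries 1, 2 and 3, and the unadjusted limma p was under 0.05 for 879, 1024 and 1020 genes there. The cause was not tested.

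Of 132 recomputed member values, 122 kept their sign and side of the threshold, 8 kept their sign and newly passed, and 2 turned. The 2 were Etv5, at 0.032 with array weights and 0.053 without KO library 3, with a range of -0.30 to 0.053 over the leave-one-out fits. Log2 fold changes ranged from 1.13 to 2.42 for Fgfr2 (adjusted p 0.00023 to 0.70) and from -1.28 to -0.87 for Fgf1 (adjusted p 0.0014 to 0.50). Spry1 ranged from 0.21 to 1.19 (adjusted p 0.011 to 0.89) and Spry2 from 0.13 to 0.95 (adjusted p 0.0069 to 0.93). Both low ends came without KO library 1. Among the other named genes, Fgfrl1 turned to 0.024 with array weights and ranged from -0.16 to 0.024 without 1 library. Mapk3 turned to -0.0045 under median-of-ratios scaling, -0.023 under quantile normalization and -0.013 after rescaling without the 50 most abundant genes, and ranged from -0.24 to 0.49 without 1 library.

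The titles carry library index numbers that neighbour each other across the groups, and their leading numbers lie close in the same pairs. The labels do not say whether either number marks a pairing. A replicate block by the index numbers gave 31 genes and 0 members passing. Deviations from the group mean correlated across genes within the 3 neighbouring pairs at 0.17, 0.23 and 0.08, each the highest for its KO library, which is a hint from the data and not from the design. The low TPM of Etv4 and Spry4 limits what can be said of them.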
